A study of Arabidopsis thaliana with 75 samples.

Results

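Uncapped RNA of untreated Arabidopsis thaliana seedlings was compared between 35SALKBH10B, in which the 35S promoter drives ALKBH10B, and Col-0, the reference accession. Both groups were 14-day-old whole seedlings without flg22, with 3 libraries each, so 6 of the 18 GMUCT libraries and of the 75 samples of the series carry the comparison. GMUCT, which maps uncapped and cleaved transcripts across the genome, ligates an adaptor to RNA that has lost its cap, here after 2 rounds of poly(A) selection. The other GMUCT libraries are flg22-treated 35SALKBH10B and Col-0, held for 4 h in 1 µM of this bacterial flagellin peptide, and the m6A writer line mta with and without flg22. The transgene carries no tissue restriction in the labels, and the sources used here name neither the number of transformed lines nor whether replicates came from separate cultures. The p-values therefore measure the spread between these libraries, which may be technical.

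ALKBH10B is a dioxygenase that removes the methyl group from N6-methyladenosine (m6A), the most common internal mark of plant mRNA. A writer complex places the mark and YTH-domain proteins such as the ECT family read it, and in Arabidopsis it affects mRNA stability, flowering and defence. Uncapped RNA arises when decapping precedes decay by the exonuclease XRN4, or when a small RNA guides the cutting of a transcript, so its level depends on transcript abundance as well as on turnover.

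Values are RPM, the reads of a gene scaled to a fixed total of reads in genes per library. The 35SALKBH10B libraries held 12354922 to 19468441 reads. Those of Col-0 held 41465534, 3107893 and 25150086 reads in replicates 1, 2 and 3. Col-0 replicate 2 was the shallowest and stood apart: over log2(RPM + 1) its Pearson r with the other Col-0 libraries was 0.940 and 0.939, against 0.993 between those and 0.982 to 0.986 among 35SALKBH10B. Among the flg22 libraries, 35SALKBH10B replicate 3 lay on the first principal component with the untreated libraries, against its label. The main limma counts and the fold changes with flg22 are therefore given with and without it. Counts with flg22 by edgeR or after quantile normalization include it, as do most values given for the difference of the contrasts.

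The overexpressed gene was checked first. ALKBH10B (AT4G02940, chromosome 4, 1306313 to 1311038 of the TAIR10 table deposited with the seedling counts) read 469, 442 and 410 RPM in 35SALKBH10B and 37.7, 36.0 and 37.3 RPM in Col-0. All 3 transgenic libraries lay above all 3 of Col-0, by 11.9-fold in the mean (log2 fold change 3.53 ± 0.18 SE, limma adjusted p = 3.4e-10). Relative to total RNA, the authors' deposited table gave ALKBH10B a log2 uncapped share of −1.61 in Col-0 and −2.10 in 35SALKBH10B, a difference of −0.49 against a median of −0.27 over all genes tested. No other demethylase of the family passed. ALKBH9B, which removes m6A in the cytoplasm, was at 4.00, 4.45 and 2.98 RPM against 6.87, 8.37 and 6.0 (limma adjusted p = 0.051), and ALKBH9A, ALKBH9C and ALKBH10A missed the threshold as well (limma adjusted p = 0.99, 0.71 and 0.12).

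Of 19277 genes tested, 2425 passed at limma adjusted p below 0.05 (12.6%), 656 of them higher in 35SALKBH10B (3.40%) and 1769 lower (9.18%). At least 2-fold, 1180 passed (6.12%), 265 higher (1.37%) and 915 lower (4.75%). The libraries of the lines did not overlap for 36.1% of the genes, 12.4% higher and 23.7% lower. The balance of higher to lower depended on the scaling, because the median gene lay at −0.13 on the log2 scale by RPM, at −0.03 with edgeR and at 0.00 after quantile normalization. edgeR's quasi-likelihood test on the recovered reads called 1198 higher and 1046 lower (6.21% and 5.43%, 11.6% in all), and the quantile-normalized fit 1200 higher and 1158 lower (6.23% and 6.01%, 12.2% in all). Among the higher calls 630 of 656 were also called higher by edgeR, and among the lower calls 1007 of 1769 were also called lower, with none called in the opposite direction. The count of calls was 1549, 926 and 1169 without 35SALKBH10B replicate 1, 2 or 3, 1572 without Col-0 replicate 3 and 4145 without flg22-treated 35SALKBH10B replicate 3, whose spread enters the shared error. Of 81 genes named here that passed, 30 lost the call when only the 12 libraries of Col-0 and 35SALKBH10B were fitted. A count such as 15 of 18 settings gives the planned settings in which a call held, with 17 in all for organelle genes and BHLH38, and left-out libraries that ended a call are named beside it.

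**Figure D1:**
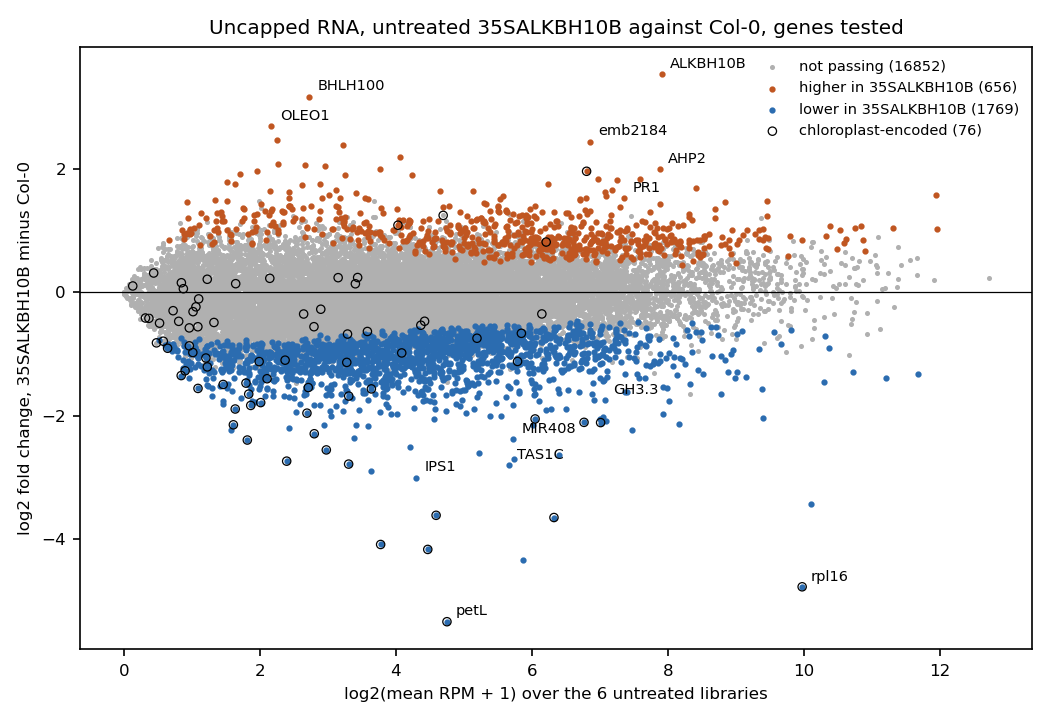
Each point is 1 of the 19277 genes tested, with its mean level over the 6 untreated libraries as log2(RPM + 1) on the x axis and its log2 fold change, 35SALKBH10B minus Col-0, on the y axis. Orange points (656) passed as higher, blue points (1769) as lower, and open circles mark the 76 chloroplast-encoded genes, 37 of which passed as lower.

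On the log2(RPM + 1) scale, the strongest rise after ALKBH10B was in BHLH100, a transcription factor of the iron-deficiency response. By edgeR, BHLH100 (4.86) and OLEO1 (4.91) had larger log2 fold changes than ALKBH10B (3.74). BHLH100 read 7.21, 12.5 and 13 RPM in 35SALKBH10B and 0.603, 0 and 0.318 RPM in Col-0. The groups did not overlap (3.18 ± 0.44 on the log2 scale, limma adjusted p = 0.00024, held in 18 of 18 settings), and mta stood with Col-0 at 0.394, 0 and 0.269 RPM. BHLH38, a related factor of the same response, read 2.2, 1.78 and 1.44 RPM against 0.0241, 0 and 0, near the limit of detection in Col-0. Its call (limma adjusted p = 0.021) held in 11 of 17 settings and was lost without 35SALKBH10B replicate 1 or 2 or Col-0 replicate 3 (adjusted p up to 0.21). These were the only 2 of the 14 tested members of the iron list that passed (3.40% of all genes were higher). Genes outside this list, unnamed ones included, were not searched for other members of this response. IMA1, another member, lay at 1.12 with a mean of 0.77 RPM (limma adjusted p = 0.053). Over the list, 7 members were positive and 7 negative. The iron uptake regulator FIT and the ferritins FER1, FER3 and FER4 did not pass, and the list's median log2 fold change was 0.01 against −0.13 for all genes tested.

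OLEO1, which coats the oil bodies of seeds, read 7.68, 5.26 and 7.45 RPM in 35SALKBH10B and 0.193, 0 and 0.398 RPM in Col-0, with no overlap (2.70 ± 0.23, limma adjusted p = 9.3e-07, 18 of 18 settings). No other seed marker passed. EM6, the only other one of 9 with enough reads to be tested, was at 0 to 0.243 RPM in the 6 libraries, and 2 of the 9 had no read in any of them. Outside the 9 seed markers, emb2184 read 212, 233 and 131 RPM against 49.5, 15.4 and 48.0 RPM. The difference was larger than the wide spread of either group (2.44 ± 0.52, limma adjusted p = 0.0053). Its symbol stands for embryo defective and does not make it a marker of seed or embryo. AHP2, a histidine phosphotransmitter of cytokinin signalling, was among the most abundant of the genes that rose, at 394, 360 and 349 RPM against 150, 45.7 and 109 RPM (2.00 ± 0.30, limma adjusted p = 0.00043). TI2, a trypsin inhibitor, read 24.1, 18.9 and 17.3 RPM against 7.31, 1.29 and 6.52 RPM. In emb2184, AHP2 and TI2 the lowest value was that of the shallow Col-0 library. All 3 held in 18 of 18 settings, that without this library included. Among the 12 largest rises were also 5 genes without a name in the reference table, of which AT3G61930 was as high in mta, at 15.6 to 21.9 RPM, as in 35SALKBH10B, at 13.5 to 16.3 RPM, against 1.91 to 2.15 RPM in Col-0.

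Of the 5 loci that give rise to trans-acting siRNAs, the 3 TAS1 copies passed as lower in 35SALKBH10B (9.18% of all genes). TAS2 and TAS3 did not pass. TAS1 transcripts are cut under the guidance of miR173 and then turned into trans-acting siRNAs, so that a cut, uncapped transcript is the usual intermediate. TAS1C read 14.7, 8.42 and 11.6 RPM in 35SALKBH10B and 93.7, 58.6 and 110 RPM in Col-0. TAS1A read 31.2, 16.0 and 20.4 RPM against 150, 102 and 179 RPM. Neither pair of groups overlapped, and the mean in Col-0 was 7.57 times and 6.35 times that in 35SALKBH10B (limma adjusted p = 0.00011 for both, 18 of 18 settings). In mta, TAS1C was at 33.4 to 70.5 RPM and TAS1A at 88.1 to 149 RPM. TAS1B passed as lower too (−1.18 ± 0.33, limma adjusted p = 0.025), in 12 of 18 settings and not without 35SALKBH10B replicate 1, 2 or 3 or Col-0 replicate 1 (adjusted p up to 0.11). TAS2, also a target of miR173, had overlapping groups at 13.1, 8.74 and 9.96 RPM against 22.9, 12.5 and 25.7 RPM (limma adjusted p = 0.21), and TAS3 had an adjusted p of 0.12. The TAS1 loci are near-identical copies, and reads may have been split between them.

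**Figure D2:**
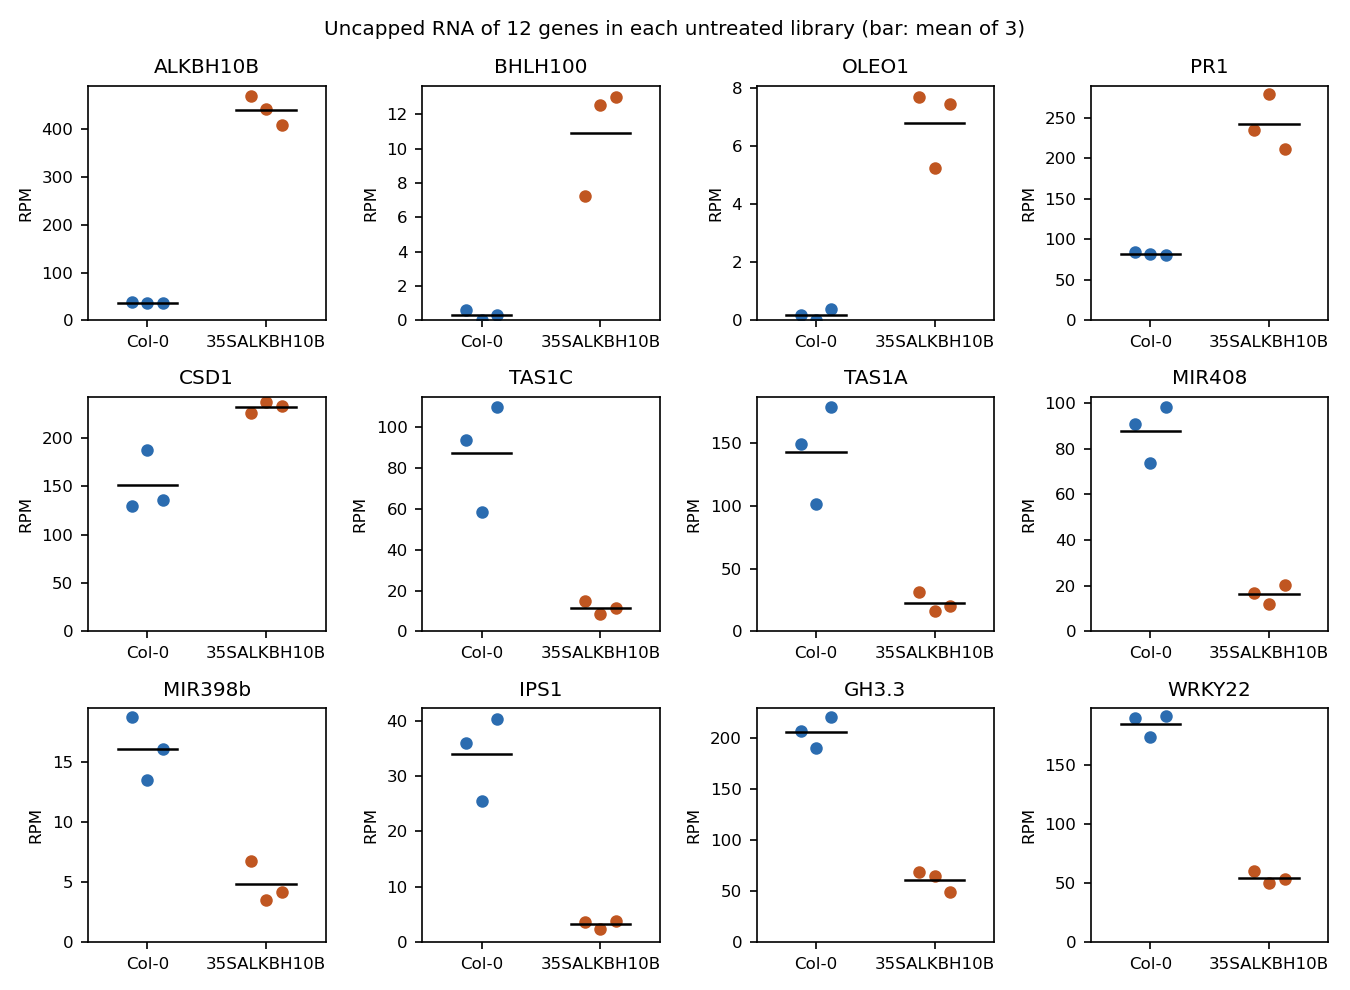
Each panel shows uncapped RNA of 1 gene in RPM, on a linear axis that starts at 0, in the 3 untreated Col-0 libraries (blue) and the 3 untreated 35SALKBH10B libraries (orange), with a bar at the mean. The groups do not overlap in any of the 12 panels, from ALKBH10B at 469, 442 and 410 RPM against 37.7, 36.0 and 37.3 RPM to CSD1, where the closest libraries of the groups are at 226 and 188 RPM.

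Among 23 miRNA genes with enough reads, 6 passed as lower (26.1%, against 9.18% of all genes) and 0 as higher. They were looked at after the calls had been seen. edgeR also called 6 lower and 0 higher. The absence of higher calls by limma was not particular to miRNA genes. It held also for 39 snoRNA, 86 ncRNA and 131 lncRNA genes, of which 12.8%, 14.0% and 7.63% were lower. MIR408, whose miRNA targets copper proteins, read 16.9, 11.8 and 20.4 RPM in 35SALKBH10B and 91.0, 73.7 and 98.4 RPM in Col-0 (−2.37 ± 0.32, limma adjusted p = 0.00018). MIR398b read 6.74, 3.56 and 4.16 RPM against 18.7, 13.5 and 16.1 RPM (−1.58 ± 0.27, limma adjusted p = 0.0011). Both had groups that did not overlap and held in 18 of 18 settings, and in mta both were at the level of Col-0, at 90.7 to 104 and 14.4 to 21.6 RPM. MIR156c (−1.66) and MIR824 (−1.30) also held in 18 of 18 settings. MIR162a (−1.62, 16 of 18 settings) was lost without 35SALKBH10B replicate 2, and MIR398c (−1.08, 15 of 18) without that library or Col-0 replicate 2, with adjusted p up to 0.084 and 0.062. Of the miRNA genes that did not pass, MIR159b lay at 1.01, MIR400 at 0.84 and MIR779 at 0.56 on the log2 scale. Genes of the opposite strand cover MIR408 and MIR398b, and a gene of the same strand covers 97.0% of MIR162a. The sources used here do not state whether the authors counted by strand, so reads of these miRNA genes cannot be told apart from reads of their partners.

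Of the genes that miR398 is known to target, CSD1, a copper/zinc superoxide dismutase, and CCS, the chaperone that loads its copper, were higher. CSD1 read 226, 237 and 233 RPM against 130, 188 and 136 RPM, with no overlap (0.63 ± 0.17, limma adjusted p = 0.017). CCS read 73.6, 74.8 and 82.9 RPM against 56.7, 32.5 and 48.7 RPM (0.77 ± 0.24, limma adjusted p = 0.038). The plastid dismutase CSD2 had overlapping groups because Col-0 replicate 2 was at 400 RPM while replicates 1 and 3 were at 148 and 133 RPM, below the 308 to 350 RPM of 35SALKBH10B. CSD2 did not pass (limma adjusted p = 0.13), and without that library it did (adjusted p = 0.0052). CSD1 held in 13 of 18 settings and lost its call without 35SALKBH10B replicate 2 or 3 or Col-0 replicate 1 or 3 (adjusted p up to 0.077), and CCS held in 9 of 18 and lost it without any 35SALKBH10B library or Col-0 replicate 2 or 3 (up to 0.14). Against total RNA, the authors' deposited table gave lower values in 35SALKBH10B for CSD1, by a log2 difference of −0.50, for CCS by −0.09 and for CSD2 by −0.96.

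Over 53 tested miRNA targets, 2 were higher and 5 lower (3.40% and 9.18% of all genes, 4 and 4 by edgeR). The median was −0.20, close to that of all genes. HAM3, a GRAS-domain regulator of meristems and a target of miR171, fell to 8.70, 9.55 and 9.19 RPM from 25.6, 55.7 and 26.5 RPM (−1.77 ± 0.34, limma adjusted p = 0.0025, 18 of 18 settings). MYB33, a target of miR159, and AP2, a target of miR172, were lower too (−1.25 and −1.05 on the log2 scale), as was NAC1, a target of miR164 (−0.86, 17 of 18 settings). MYB33 held in 16 of 18 settings and lost its call without 35SALKBH10B replicate 2 or 3 (adjusted p up to 0.069), and AP2 held in 15 of 18 and lost it without 35SALKBH10B replicate 1 or Col-0 replicate 3 (up to 0.071). Of 16 genes of small RNA machinery, 2 were lower and 0 higher (9.18% and 3.40% of all genes). The lower ones were RDR6, which makes the double-stranded precursor of tasiRNAs, and DCL4, which cuts it into siRNAs. DCL4 read 6.90, 4.05 and 4.26 RPM against 13.6, 10.9 and 12 RPM, and RDR6 read 3.84, 3.72 and 3.18 RPM against 7.33, 9.01 and 9.50 RPM. Both sets of libraries were apart, but the calls (limma adjusted p = 0.014 and 0.019, 15 and 14 of 18 settings) were lost without 35SALKBH10B replicate 2 or 3, and that of RDR6 also without Col-0 replicate 3 (adjusted p up to 0.075). AGO1, the slicer, and DCL1, which cuts miRNA precursors, did not pass (adjusted p = 0.77 and 0.86).

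Chloroplast-encoded genes took a smaller share of the uncapped reads in 35SALKBH10B. Genes of the chloroplast genome took 0.0737%, 0.0859% and 0.0894% of the reads in 35SALKBH10B and 0.254%, 0.494% and 0.296% in Col-0. Every transgenic library lay below every Col-0 library, by 4.2-fold in the mean, and an exact two-sided permutation test gave p = 0.1, the smallest that 3 against 3 allows. The share of mitochondrial genes overlapped, at 0.229% to 0.297% against 0.272% to 0.461% (exact permutation p = 0.6). Of 76 chloroplast genes tested, 37 passed as lower and 2 as higher by limma, and 36 and 2 by edgeR, with a median log2 fold change of −0.89. Of 44 mitochondrial genes 13 were lower and 0 higher, with a median of −0.60. Over all genes tested, 9.18% were lower and 3.40% higher. These libraries were made from poly(A)-selected RNA, and organelle transcripts are mostly not polyadenylated, so their levels here concern the part that was captured.

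Within the chloroplast genome, the largest losses lay side by side. Of 21 runs of 3 or more neighbouring tested genes that were called in 1 direction, all 21 ran lower and 5 lay in the chloroplast, the longest with 7 and 6 genes, while no nuclear run exceeded 3. The runs were built from the limma calls by RPM, 1769 lower and 656 higher, and were not counted under the other scalings. At 2-fold or more, 7 runs remained, 5 of them chloroplast. The longest, at 63538 to 71940 of the chloroplast genome, held psbJ and psbE of photosystem II, petL and petG of the cytochrome b6f complex, psaJ of photosystem I, the ribosomal protein gene rps18 and ATCG00660. In it, petL read 0.627, 0.0809 and 0.0514 RPM in 35SALKBH10B and 41.8, 35.4 and 77.6 RPM in Col-0 (−5.34 ± 0.73, limma adjusted p = 0.0002), and petG read 0.470, 0.162 and 0.770 RPM against 15.3, 23.8 and 35.7 RPM. In both genes every Col-0 library lay far above every transgenic one. The run at 79489 to 85843 held ribosomal protein genes, among them rpl16 at 53.7, 50.6 and 87.9 RPM against 1086, 3322 and 1417 RPM (−4.77 ± 0.40, limma adjusted p = 9.3e-07) and rpl22 at 1.88, 3.08 and 2.36 RPM against 50, 22.8 and 58.5 RPM. Both held in 17 of 17 settings, and for rpl16 the high outlying value was that of Col-0 replicate 2. Loci of the same strand cover rpl16 and rpl22, and a locus of the opposite strand covers psaJ, so their reads cannot be assigned to 1 gene. atpB, a subunit of the ATP synthase, fell to 48.3, 41.7 and 29.9 RPM from 183, 131 and 214 RPM.

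**Figure D3:**
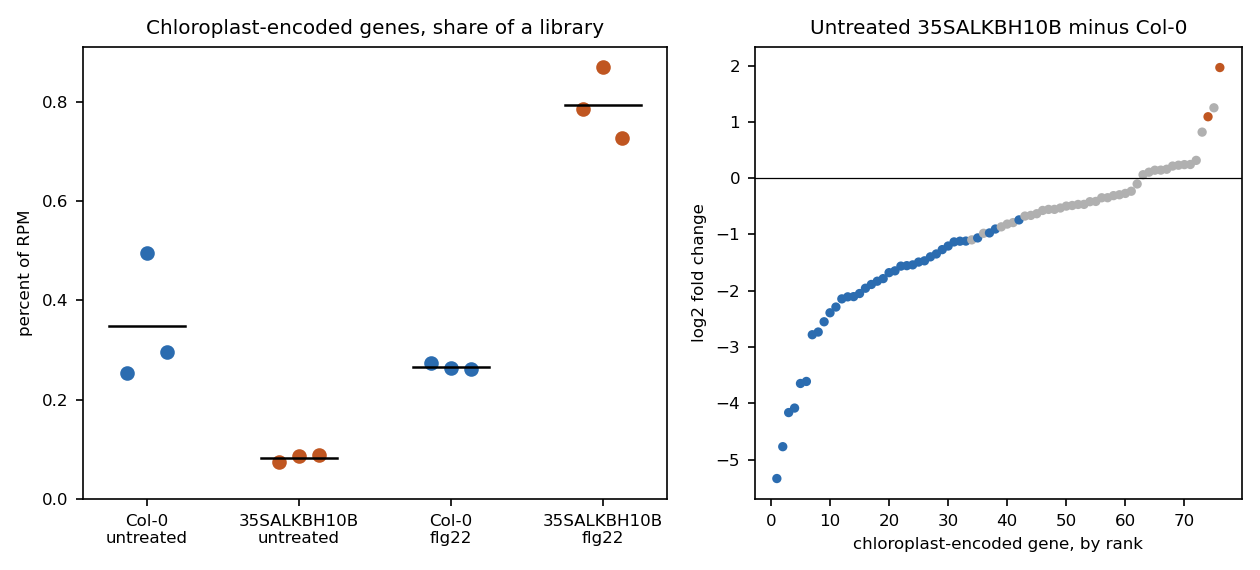
Left, the share of all RPM in chloroplast-encoded genes (percent, y axis from 0) in each Col-0 (blue) and 35SALKBH10B (orange) library, untreated and flg22-treated, with a bar at the mean. Right, the log2 fold change of the 76 chloroplast-encoded genes tested in untreated seedlings, ordered by size, with genes that passed in color; 37 lie below and 2 above 0 among those that passed. The shares are lower in 35SALKBH10B without flg22 (0.0737% to 0.0894% against 0.254% to 0.494%) and higher with it (0.726% to 0.870% against 0.262% to 0.274%).

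Of 47 nuclear photosynthesis genes tested, 4 were higher and 0 lower (3.40% and 9.18% of all genes, 6 and 0 by edgeR), with a median of 0.14 (0.31 by edgeR). PSBO1, which stabilizes the oxygen-evolving complex, read 2900.1, 3998 and 3358 RPM against 1489, 1983 and 1480.1 RPM (1.05 ± 0.27, limma adjusted p = 0.015), with groups that did not overlap. PSBR, PSAF and GAPB rose by 1.02, 0.86 and 0.82 on the log2 scale, and the small subunit gene RBCS1A did not pass, with Col-0 replicate 2 at 5704 RPM against 1559.6 and 1718 RPM in the others. The calls of PSBO1, PSBR, GAPB and PSAF held in 15, 17, 14 and 10 of 18 settings. Those of PSBO1 and PSBR were lost without 35SALKBH10B replicate 2, that of PSBO1 also without Col-0 replicate 3, that of GAPB without 35SALKBH10B replicate 1 or 2 or Col-0 replicate 2, and that of PSAF without any library except Col-0 replicate 2, with adjusted p up to 0.11. An annotated nuclear rRNA gene, AT3G41768, was at 191, 158 and 202 RPM against 1496, 2207 and 2326 RPM (−3.42 ± 0.33, limma adjusted p = 5.3e-06, 18 of 18 settings). Reads of rRNA may belong to any copy. After poly(A) selection its level also concerns only the part that was captured, and whether that part differed between libraries was not tested.

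Of 14 tested genes of phosphate starvation, 8 were lower in 35SALKBH10B and 0 higher (9.18% and 3.40% of all genes). By edgeR 6 were lower, after quantile normalization 5 and without Col-0 replicate 2 6. IPS1, a noncoding RNA that sequesters miR399 when phosphate is short, read 3.76, 2.35 and 3.90 RPM against 36.0, 25.4 and 40.4 RPM in Col-0, and 29.7 to 34.7 RPM in mta. The groups were far apart (−3.00 ± 0.37, limma adjusted p = 8e-05). All 14 had a negative log2 fold change and the median was −0.99, against −0.13 for all genes. PECP1 and PS2, phosphatases that release phosphate from lipid head groups, read 0.0784, 1.94 and 1.18 against 7.57, 7.08 and 8.59 RPM and 6.04, 3.89 and 3.75 against 21.3, 13.8 and 17.7 RPM. SQD2, which makes sulfolipid in place of phospholipid, and the phosphate transporter PHT1;1 were lower too (−0.94 and −0.87), while PHT1;4 and the exporter PHO1 did not pass (−0.10 ± 0.18 and −0.19 ± 0.23). IPS1 and PECP1 held in 18 of 18 settings, PS2 (16 of 18) failed without 35SALKBH10B replicate 2, SQD2 (17 of 18) without 35SALKBH10B replicate 3, and PHT1;1 (14 of 18) without 35SALKBH10B replicate 2 or 3 or Col-0 replicate 3 (adjusted p up to 0.055, 0.052 and 0.10). For IPS1, PECP1 and PS2 the log2 uncapped share in the authors' deposited table differed between the lines by −0.11, 0.16 and 0.14.

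Of 7 auxin-response genes tested, 4 were lower and 0 higher (9.18% and 3.40% of all genes), with a median of −1.29. After quantile normalization or without Col-0 replicate 2, 3 were lower. GH3.3, which conjugates auxin to amino acids, read 68.8, 65.3 and 48.8 RPM against 207, 190 and 220 RPM (−1.75 ± 0.19, limma adjusted p = 1.6e-05), and its relative GH3.5 read 16.4, 14.6 and 18.6 RPM against 46.5, 44.4 and 50.9 RPM. The groups of both were well separated. IAA2, an auxin-induced repressor, read 12.5, 11.6 and 7.40 RPM against 27.9, 22.8 and 29.0 RPM, and YUC8, an enzyme of auxin synthesis outside the list, read 1.80, 0.890 and 2.26 RPM against 9.62, 38.3 and 15.9 RPM. These 4 held in 18 of 18 settings. The fourth of the list was GH3.2 (−1.60, limma adjusted p = 0.038), which held in 7 of 18 settings and failed whenever 1 of the 6 libraries was left out (adjusted p up to 0.13). The other members, IAA19 (0.36), IAA1 (0.04) and IAA29 (0.003), did not pass.

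**Figure D4:**
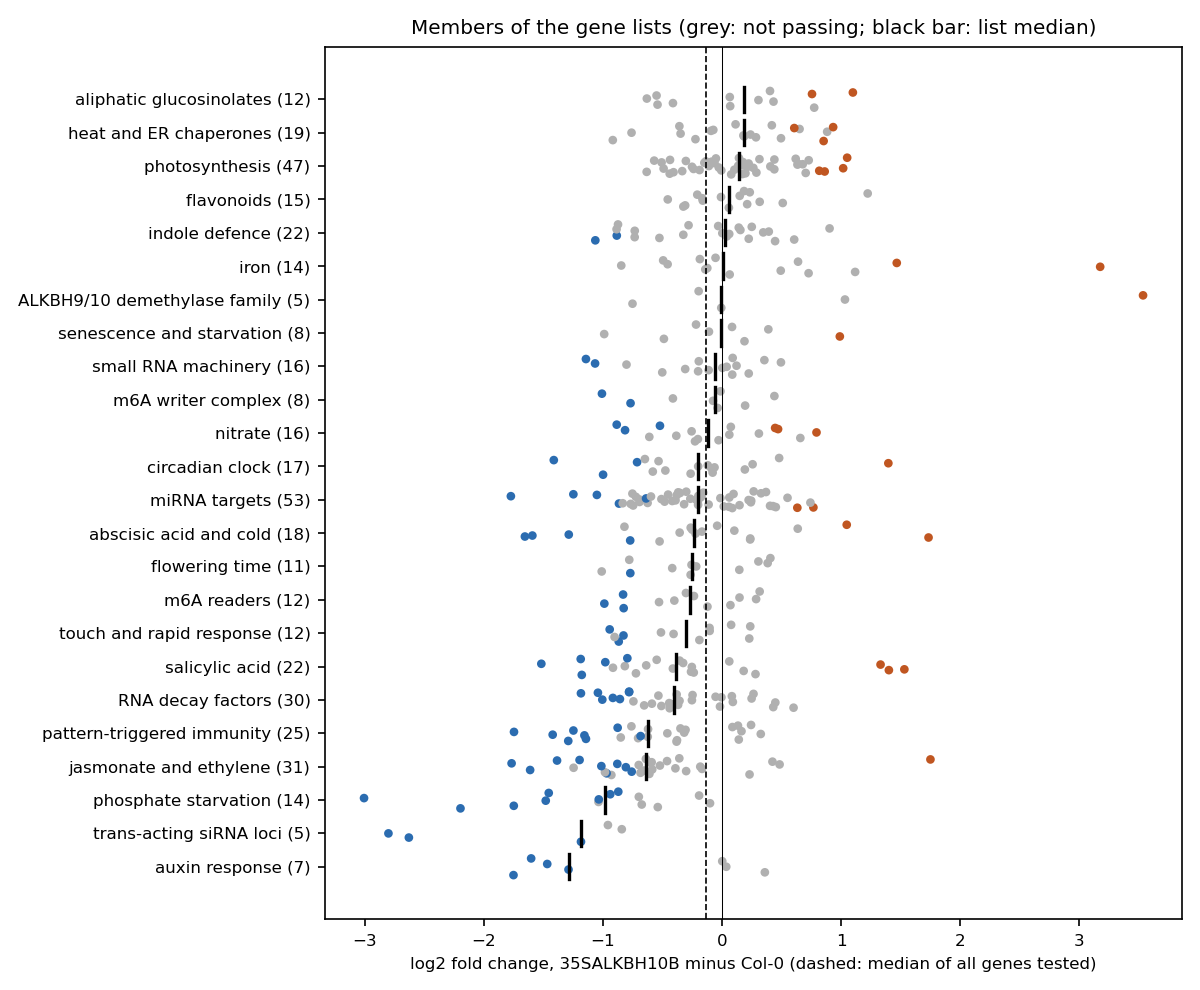
Each point is a tested member of a gene list, placed by its log2 fold change, 35SALKBH10B minus Col-0 (x axis), with orange for members that passed as higher, blue for lower and grey for the rest. Lists are ordered by their median (black bar) with the number tested in parentheses, and the dashed line marks the median of all genes tested, −0.13. The auxin list has the lowest median, −1.29, and in the phosphate list all 14 members lie below 0.

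Defence genes were read by pathway. Of 25 genes of pattern-triggered immunity 8 were lower and 0 higher (9.18% and 3.40% of all genes). The median was −0.62, and −0.45 by edgeR, which called 6 lower. Over all genes the median was −0.13 by RPM and −0.03 by edgeR. WRKY22, a transcription factor downstream of the flagellin receptor, read 60.4, 49.9 and 53.3 RPM against 190, 173 and 191 RPM (−1.75 ± 0.34, limma adjusted p = 0.0028). MKK5, a kinase of the same cascade, read 7.53, 4.05 and 5.39 RPM against 15.7, 15.4 and 18.3 RPM, and the groups of both were apart in all libraries and in 18 of 18 settings. The receptor FLS2 read 45.8, 36.9 and 42.2 RPM against 86.9, 54.1 and 96.7 RPM, a call (limma adjusted p = 0.049, 8 of 18 settings) that failed without any library except Col-0 replicate 2 (adjusted p up to 0.17). The oxidase RBOHD, which makes the defence burst of reactive oxygen, was at 548, 575 and 540 RPM against 463, 656 and 466 RPM, with overlapping groups, and WRKY33 did not pass (adjusted p = 0.88 and 0.081).

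Of 22 genes of the salicylic acid pathway, 3 were higher and 5 lower (3.40% and 9.18% of all genes), with a median of −0.38. Both edgeR and the quantile-normalized fit called 3 higher and 2 lower. The higher ones were pathogenesis-related genes. PR1 read 235, 280 and 212 RPM against 85.1, 82.0 and 80.6 RPM (1.53 ± 0.16, limma adjusted p = 9.9e-06), and PR2 read 69.8, 72.6 and 65.7 RPM against 32.2, 23.8 and 25.4 RPM (1.33 ± 0.23, limma adjusted p = 0.0011). Both held in 18 of 18 settings. In mta the level of PR1 was between those of the other lines, at 135 to 154 RPM, and that of PR2 was at or above that of 35SALKBH10B, at 73.2 to 97.5 RPM. PR5 also passed as higher (1.4, limma adjusted p = 0.023, 12 of 18 settings) but not without 35SALKBH10B replicate 1 or 2 or Col-0 replicate 2 or 3 (up to 0.097). The lower ones include the salicylic acid receptor NPR4, at 5.72, 3.8 and 5.09 RPM against 21.7, 6.76 and 25.1 RPM, and the regulator CBP60G (−1.52 and −1.19, limma adjusted p = 0.022 and 0.033). Both held in 11 of 18 settings and failed without 35SALKBH10B replicate 2 or 3 or Col-0 replicate 1 or 3 (up to 0.099 and 0.11), and NPR1 and the synthesis gene ICS1 did not pass.

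Of 31 jasmonate and ethylene genes, 9 passed as lower and 1 as higher (9.18% and 3.40% of all genes), and 21 did not pass. The median was −0.64 (edgeR 6 and 2, median −0.50). ACS6, an enzyme of ethylene synthesis, read 120, 104 and 123 RPM against 336, 462 and 396 RPM (−1.77 ± 0.30, limma adjusted p = 0.0011). EBF2, an F-box protein that removes the ethylene regulator EIN3, read 65.3, 78.8 and 63.2 RPM against 158, 237 and 159 RPM (−1.38 ± 0.25, limma adjusted p = 0.0018). AOS, an enzyme of jasmonate synthesis, read 61.9, 59.3 and 49.8 RPM against 134, 132 and 128 RPM. For all 3 the groups did not overlap and the calls held in 18 of 18 settings. The repressor JAZ2 was lower too (−1.61, limma adjusted p = 0.016, 15 of 18 settings, lost without 35SALKBH10B replicate 2 or 3, up to 0.063). The exception was PDF1.2A, a defensin induced by jasmonate with ethylene, at 10.8, 13 and 7.35 RPM against 2.32, 2.57 and 2.07 RPM, whose call (limma adjusted p = 0.043, 8 of 18 settings) failed whenever 1 of the 6 libraries was left out (up to 0.15). Of 22 genes of indole defence 2 were lower and 0 higher (9.18% and 3.40% of all genes), with a median of 0.02. MYB51, which activates indole glucosinolate genes, read 72.9, 52.4 and 47.9 RPM against 128, 101 and 133 RPM (limma adjusted p = 0.014). Its call held in 15 of 18 settings and was lost without 35SALKBH10B replicate 2 or 3 (up to 0.070).

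Several smaller groups held genes that passed, where 3.40% of all genes were higher and 9.18% lower. Of 18 genes of abscisic acid and cold, 2 were higher and 4 lower, with a median of −0.24. CBF2, a transcription factor of the cold response, read 28.0, 27.4 and 25.2 RPM against 70.6, 89.1 and 90.4 RPM (−1.59 ± 0.24, limma adjusted p = 0.00049), and CBF1 (−1.29) and the abscisic acid synthesis gene NCED3 (−1.65) were lower with it, all in 18 of 18 settings. COR15A, a cold-induced chloroplast protein, was higher at 11.4, 7.45 and 5.29 RPM against 2.82, 0 and 3.70 RPM, with a call (limma adjusted p = 0.014, 13 of 18 settings) lost without 35SALKBH10B replicate 1 or 2 or Col-0 replicate 2 (up to 0.084). In the circadian clock, 3 of 17 genes were lower and 1 higher. The morning gene LHY fell to 84.6, 83.3 and 90.2 RPM from 146, 205 and 172 RPM (−1.0 ± 0.18, limma adjusted p = 0.0021), the photoreceptor gene ZTL fell as well (−1.41), and PRR7, which represses LHY, rose to 81.1, 56.5 and 55.2 RPM from 27.6, 15.1 and 30.5 RPM (1.4 ± 0.26, limma adjusted p = 0.0023), all in 18 of 18 settings. The time of day of collection was not stated. BIP2, an endoplasmic reticulum chaperone, read 347, 368 and 324 RPM against 187, 183 and 172 RPM (0.93 ± 0.21, limma adjusted p = 0.0077, 18 of 18 settings), and 3 of 19 chaperones, all BIP genes, were higher and 0 lower. BIP2 and BIP1 are near-identical and may share reads, and BIP1 held in 9 of 18 settings. MAM1, which lengthens the chain of methionine for aliphatic glucosinolates, read 248, 249 and 247 RPM against 130, 177 and 136 RPM (0.76 ± 0.18, limma adjusted p = 0.011, 18 of 18 settings). Of 12 genes of that pathway 2 were higher and 0 lower. Of the other lists, 0 were higher and 3 of 12 lower for touch and rapid response (0 and 0 by edgeR), 0 and 1 of 11 for flowering time, 3 and 3 of 16 for nitrate (3 and 1 by edgeR, 0 and 1 without Col-0 replicate 2), 1 and 0 of 8 for senescence and starvation, and 0 and 0 of 15 for flavonoids.

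Genes of RNA decay and of m6A came next, beside 9.18% lower and 3.40% higher over all genes and a median of −0.13. Of 30 RNA decay factors 7 were lower and 0 higher, with a median of −0.40, while edgeR called 4 lower and 1 higher with a median of −0.26. VCR, a relative of the decapping scaffold VCS, read 12.6, 13 and 12.7 RPM against 25.9, 24.5 and 29.6 RPM (−1.0 ± 0.20, limma adjusted p = 0.0033), and it held in 18 of 18 settings. XRN4 itself was at 50.2, 46.7 and 45.7 RPM against 61.4, 64.7 and 79.0 RPM and did not pass (adjusted p = 0.070), and the decapping factor DCP5 was at 444, 477 and 462 RPM against 329, 351 and 345 RPM (adjusted p = 0.18) with groups apart. XRN2, a nuclear exonuclease, passed as lower (−0.78, limma adjusted p = 0.014) in 16 of 18 settings, and not without 35SALKBH10B replicate 1 (up to 0.062). In the m6A writer complex 2 of 8 genes were lower and 0 higher, VIR (−0.77) and HAKAI (−1.01), and edgeR called neither (limma adjusted p up to 0.09 and 0.14 over the settings). VIR held in 12 of 18 settings and was lost without 35SALKBH10B replicate 2 or 3 or Col-0 replicate 2, and HAKAI held in 9 of 18 and was lost without replicate 1 or 2 of either line. The writer list's median was −0.06 and changed sign with edgeR, to 0.07. Among 12 readers 3 were lower and 0 higher (1 lower by edgeR), led by ECT7 at 52.1, 74.1 and 98.9 RPM against 110, 209 and 132 RPM (limma adjusted p = 0.0098, 16 of 18 settings, lost without 35SALKBH10B replicate 1, up to 0.062), and ECT2, another reader, did not pass (adjusted p = 0.47).

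The m6A peak lists of the same lines were set beside the calls, from Col-0 replicates 2 and 3 and all 3 replicates of 35SALKBH10B, and the list of Col-0 replicate 1 was not analysed here. A peak in both of these untreated Col-0 libraries was found for 51.3% of the genes tested, for 66.3% of the genes higher in 35SALKBH10B, for 52.3% of the lower genes and for 50.6% of those that did not pass. Peaks are found more readily in abundant genes, so genes were compared within 8 bins of mean RPM. In 7 of the 8 bins a smaller share of genes with a peak than of genes without one was higher in 35SALKBH10B, as in bin 7, with 5.19% of 2081 genes against 8.84% of 328. The top bin was the exception, with 10.4% of 2236 against 9.20% of 174. The share that was lower was smaller among genes with a peak in all 8 bins, at 8.72% against 14.9% in the top bin. These shares were not tested. Within each bin the median log2 fold change of genes with and without a peak differed by at most 0.12. Of 192 genes with a peak in both Col-0 libraries and in none of 35SALKBH10B, 35 were lower and 3 higher, with a median of −0.38. Of 67 genes with a peak in all 35SALKBH10B libraries and in neither of Col-0, 9 were higher and 1 lower, with a median of 0.06. Over all genes tested, 9.18% were lower and 3.40% higher, with a median of −0.13. Neither set was compared within bins of mean RPM. Whether the loss or gain of these peaks followed transcript level was not tested. The depth behind the m6A peak lists is unknown. ALKBH10B carried a peak in both Col-0 libraries used and in 3 of 3 35SALKBH10B libraries.

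The authors also deposited 1 log2 value of uncapped over total RNA for each line, with no replicates. These share the GMUCT reads with the test above, so the directions are not independent of it. In the authors' deposited table the median difference, 35SALKBH10B minus Col-0, was −0.27 over 19132 tested genes. It was 0.67 over 644 higher genes, of which 604 had a positive difference, and −0.99 over 1764 lower genes, of which 1711 had a negative one. Among 79 genes named here that passed and have a value, the difference in the authors' deposited table had the opposite sign to the uncapped RNA for 8: for ALKBH10B, CSD1 and CCS, for BIP2 (−0.11) and BIP1 (−0.50), and for PECP1, PS2 and GH3.2 (1.25). Signs were taken against 0, not against the median of −0.27. CCS and BIP2, counted as opposite, lay above that median, and so did IPS1 (−0.11), counted as the same. PR1 (1.32), TAS1C (−2.99), rpl16 (−4.80) and HAM3 (−1.51) differed in the authors' deposited table in the direction of their uncapped RNA.

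**Figure D5:**
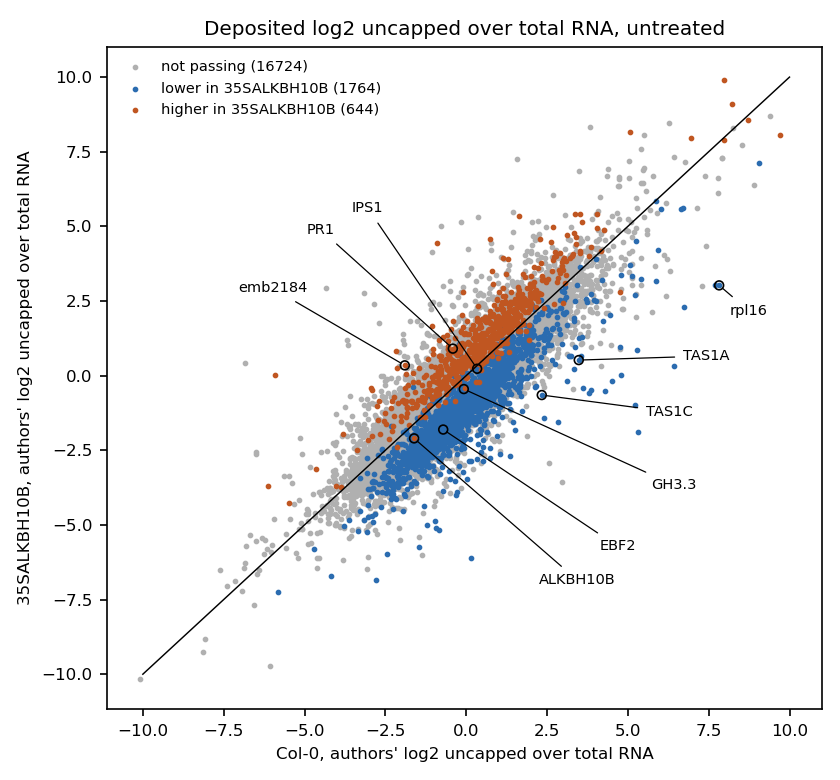
Each point is a gene with the authors' deposited log2 value of uncapped over total RNA in untreated Col-0 (x axis) and 35SALKBH10B (y axis), 1 value for each line, with the line of equality. Of the genes that passed as higher (orange, 644) 604 lie above the line, and of those that passed as lower (blue, 1764) 1711 lie below it; ALKBH10B lies below the line although its uncapped RNA rose.

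Set beside the flg22-treated libraries, the contrast differed in many of these genes. With flg22, 3978 genes were higher and 1638 lower in 35SALKBH10B than in Col-0 (20.6% and 8.50%, 29.1% in all), and 3426 and 1740 without 35SALKBH10B replicate 3 (17.8% and 9.03%, 26.8% in all). This excess of higher genes was that of the RPM scale, on which the median gene lay at 0.24. edgeR, with the median at 0.05, called 2860 higher and 2846 lower (14.8% each, 29.6% in all), and the quantile-normalized fit, with the median at 0.01, called 2535 and 2621 (13.2% and 13.6%, 26.7% in all).

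The difference of the 2 contrasts passed for 2871 genes (14.9%), positive for 2343 (12.2%) and negative for 528 (2.74%), with a median of 0.37 over all genes. Without 35SALKBH10B flg22 replicate 3 it passed for 3757 (19.5%), positive for 2904 (15.1%) and negative for 853 (4.42%). With that replicate included, the balance turned with the other scalings, to 913 positive and 1165 negative by edgeR (4.74% and 6.04%, 10.8% in all). After quantile normalization it was 761 and 895 (3.95% and 4.64%, 8.59% in all). These scalings were not run without it.

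The chloroplast share changed direction, at 0.784%, 0.870% and 0.726% in flg22-treated 35SALKBH10B against 0.274%, 0.263% and 0.262% in Col-0, and 34 of 76 chloroplast genes were higher and 7 lower (36 and 5 without 35SALKBH10B replicate 3). The log2 fold change of atpB was −2.11 without flg22 and 2.92 with it (2.93 without that replicate). Of the chloroplast genes with the largest losses, rpl22 and ATCG00800 changed sign, to 1.05 and 0.69 with flg22 (limma adjusted p = 0.041 and 0.18). Without that replicate they lay at 1.04 and 0.65 (0.076 and 0.28). The genes petL, petG, rpl16, ATCG00660 and psaJ stayed lower with flg22. The values were −3.02 for petL, −2.05 for petG, −1.83 for rpl16, −1.60 for ATCG00660 and −1.28 for psaJ (limma adjusted p up to 0.0042), and −2.61, −2.04, −1.63, −1.34 and −1.29 without 35SALKBH10B flg22 replicate 3 (up to 0.021). The difference of the contrasts passed for 45 chloroplast genes, positive in all 45, and for 50 without that library. ALKBH10B (2.81 with flg22, 2.75 without the replicate), OLEO1 (2.64 and 2.51) and BHLH100 (4.49 and 5.29) kept their direction, and GH3.3 lay at −1.75 without flg22 and at 1.81 with it (1.99 without the replicate).

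Markers of other tissues were summed to see whether the seedlings differed in makeup. Root markers summed to 858 to 1046 RPM in 35SALKBH10B and 494 to 726 RPM in Col-0, guard cell markers to 387 to 489 and 232 to 315 RPM, and phloem markers to 111 to 115 and 86.9 to 104 RPM. All 3 sums were higher in every 35SALKBH10B library, yet 0 of 7 root, 0 of 9 guard cell and 0 of 4 phloem markers passed in limma, and edgeR called 1, 2 and 1 of them higher. The root sum rested on PYK10, at 1009, 837 and 811 RPM against 669, 433 and 579 RPM (limma adjusted p = 0.051). Flower markers summed to 0.976 to 2.75 RPM against 2.25 to 5.09 RPM. The photosynthesis list, used for leaf, summed to 25889 to 29291 RPM against 20364 to 24706 RPM, also higher in every 35SALKBH10B library. The part of tissue makeup in the results was not tested, and in whole seedlings fewer cells of a type and less RNA per cell cannot be told apart.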

How the data were processed

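GMUCT, mRNA and m6A libraries were deposited, and the report uses the 6 untreated 35SALKBH10B and Col-0 GMUCT libraries, with the other 12 in the fit. The authors deposited RPM, scaled by the sum over 32678 genes. All values divide back into whole reads (100% of values within 0.01). The labels name STAR, MACS2 and TAIR10 without versions, and no source used here states whether counting used the strand. The authors also deposited, for each line, 1 log2 ratio of uncapped to total RNA per gene. The deposited count table of seedling mRNA was made with featureCounts 2.0.1 per the file headers. It was used for gene positions and to check the log base of the deposited ratio against log2(RPM over CPM) (Pearson r 0.961 over 12628 genes). Of its count columns, 12 could not be mapped to a group and were not used. The deposited MACS2 peaks carry a fold enrichment as a ratio and −log10 p and q values per library and strand, and each peak was assigned by its summit to the opposite-strand gene there, which placed at least 99.1% of summits in a gene.

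limma 3.58.1 in R 4.3.3 fitted log2(RPM + 1), with trend, of genes with an RPM of at least 1 in at least 3 libraries, as 6 groups of 3. Benjamini-Hochberg adjustment ran over all genes, and calls were made below 0.05. Fold changes on this scale understate changes of low genes. edgeR 4.0.16 on recovered reads called 2244 genes, and DESeq2 1.42.0 was another alternative. Methods were tested on simulated data. Chloroplast shares were compared by exact two-sided permutation. Planned settings changed the pseudocount, filter, samples, block, trend, scaling or tool, or left out a library. 19143 of 19277 genes tested matched the RefSeq TAIR10.1 names by locus tag, and 57 of 76 chloroplast genes by equal start and end.

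Genes named are ALKBH10B and its family; the 12 largest changes in each direction that passed with non-overlapping libraries and at least 5 RPM in the higher group; up to 4 passing and 2 other members of each list; genes at 0 in 1 group; the largest differences with flg22; and members of 3 runs. Further list members and the miRNA genes were added after their values were seen. The comparison, lists and rule were chosen with earlier results of these data known. Replicate numbers did not pair the libraries.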

Additional observations from a re-analysis of the deposited data

Results flagged for a closer look

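Among the genes named above, 43 had a genotype contrast that differed between flg22-treated and untreated seedlings by limma's test of the difference (adjusted p below 0.05 over all genes). The values are that difference on the log2 scale, flg22 minus untreated, with 36 positive and 7 negative. Over all genes tested, 12.2% passed as positive and 2.74% as negative on the RPM scale. Many of the named genes were chosen for a large untreated contrast, mostly lower, or for this difference itself. The split therefore follows in part from that choice and is no result about these genes. All 43 kept their sign by edgeR and after quantile normalization, and 25 and 23 of them still passed there.

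In the chloroplast the difference was 5.03 for atpB, 4.66 for rpl22, 2.94 for rpl16, 2.57 for ATCG00660, 2.23 for rps18, 2.04 for petG, 1.5 for psaJ and 1.33 for psbE. The chloroplast share differed in the same way: 35SALKBH10B minus Col-0 was −0.265 percentage points untreated and 0.527 percentage points with flg22, every library of 1 contrast going against those of the other, and this difference between the contrasts was not tested.

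Among small RNA genes and miRNA targets it was 1.56 for TAS1C, 1.47 for MIR408, 1.22 for MIR398b, 1.29 for DCL4, 1.58 for HAM3, −0.98 for CSD1 and −1.15 for CCS. Phosphate genes gave 2.61 for IPS1, 2.64 for PECP1, 2.24 for PS2, 1.66 for PHT1;1, 1.15 for SQD2, 0.99 for PHO1 and −0.78 for PHT1;4. Auxin genes gave 3.56 for GH3.3, 2.23 for YUC8, 2.05 for IAA2 and 1.21 for GH3.5.

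Hormone and defence genes gave 2.44 for PDF1.2A, 1.78 for JAZ2, 1.0 for AOS, 0.69 for PR1 and −1.23 for ICS1, and cold and abscisic acid genes 1.87 for CBF1, 1.85 for CBF2 and 1.83 for NCED3. The rest were 2.46 for AT3G41768, 1.62 for VCR, 1.53 for XRN2, 1.08 for LHY, 1.03 for VIR, 0.78 for MAM1, −1.02 for BIP2, −1.17 for AT3G61930 and −2.23 for EM6. Without 35SALKBH10B flg22 replicate 3, which goes against its label, 38 of the 43 still passed, and TAS1C, DCL4, HAM3, MAM1 and MIR408 did not (adjusted p 0.051 to 0.069). None of the 43 values moved by over 1.5 times, and the largest move was that of PDF1.2A, to 3.48. Another 18 named genes passed only without it, among them GH3.2 (2.61), BHLH100 (2.12), emb2184 (−2.29), WRKY33 (1.07), ACS6 (1.08), BIP1 (−0.95) and ALKBH10B (−0.79), with adjusted p up to 0.047 over the 18.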

How the results depend on the processing

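The 2425 genes called became 744 when only the 12 libraries of Col-0 and 35SALKBH10B were fitted, 1452 after reads were drawn to the depth of the shallowest library, 1180 at 2-fold or more, and 926 to 4145 when 1 library was left out. The highest of these was without 35SALKBH10B flg22 replicate 3 and the lowest without untreated 35SALKBH10B replicate 2. Of the 656 higher and 1769 lower calls, 355 and 1248 were also called without the shallow Col-0 replicate 2, and 163 and 516 in every planned setting that tests the same genes. The replicate block gave 2237 calls and changed the call of 1 named gene, and residuals of same-numbered libraries correlated at 0.317, 0.158 and −0.138. The flg22 contrast fell from 5616 to 3703 genes in the 12-library fit. The difference of the contrasts fell from 2871 to 1004 there, to 1656 after quantile normalization, where its excess of positive values was lost as it was by edgeR, and ranged from 1771 to 3757 when 1 library was left out. Runs of neighbours fell from 21 to 7 at 2-fold. With a peak in at least 1 of the 2 Col-0 libraries used, 71.8% of higher and 63.9% of lower genes had a peak, against 60.2% of all genes, and at an enrichment of 4 in both, 40.2% and 32.3%, against 33.5%. ALKBH10B (3.4 to 3.8) kept direction in every setting run. For the chloroplast share the only settings left out 1 library, which could not change the direction because the groups do not overlap. Of 81 named genes that passed, 36 lost the call in at least 1 setting, 30 of them in the 12-library fit, and 0 changed direction.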
